A study of Mus musculus with 8 samples.

Results

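The data described here are the mRNA levels of 10 ligands of the TNF superfamily in mouse CD8+ T cells, namely Tnf, Lta, Ltb, Fasl, Cd40lg, Tnfsf4, Tnfsf8, Tnfsf10, Tnfsf11 and Tnfsf14. The members were given by gene symbol and were chosen with earlier results of these data known. Each symbol matched 1 of the 55536 Ensembl genes in the count tables. The RNA came from lymph node T cells of OT-I mice on a C57BL/6 and Rag1-deficient background. All of them carry 1 transgenic antigen receptor, which recognises SIINFEKL, a peptide of ovalbumin, so every library comes from cells of 1 antigen specificity, with no endogenous receptor repertoire. Donors were 5 to 12 weeks old and of either sex. All cultures received 100 nM peptide for 2 days, were washed, and were then kept in 20 ng/ml IL-2 for 2 days. During the IL-2 phase, GC7-treated cells received 10 µM GC7, a spermidine analogue that blocks deoxyhypusine synthase and thereby the hypusine modification of the translation factor eIF5a, and Mock cells received the acetic acid vehicle. There were 4 libraries in each group, and no library was made from cells restimulated with antigen.

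TNF superfamily ligands are mostly made as type II membrane proteins that assemble as trimers, and several are cut from the cell surface to give soluble forms. Their receptors form a matching family and signal through TRAF adaptors to NF-kappaB and MAP kinases or, where they carry a death domain, to caspases. In cytotoxic T cells, Fasl and Tnfsf10 kill target cells, Tnf and the lymphotoxins drive inflammation and lymphoid tissue organisation, and the other members are costimulatory signals exchanged with antigen-presenting cells and other lymphocytes. Several of the genes respond to antigen receptor signals through NFAT, AP-1 and NF-kappaB, and the mRNA of Tnf is known for AU-rich elements in its 3′ UTR that mark it for rapid decay.

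Promoter sequence was at hand from RefSeq for 8 of the 10 genes (GRCm38.p6, 250 bases before to 50 bases after the start), and not for Cd40lg and Tnfsf4. Both strands were searched for a kappaB element (GGGNNTTTCC), the NFAT core (GGAAA), an AP-1 element (TGANTCA) and a TATA box (TATAAA). The 3 promoters shown are those of Ltb, the ligand that fell most, of Tnf, its neighbour on the chromosome, and of Tnfsf8, which rose 8.75-fold. Matches are in capitals, and a match is a description of the letters only.
Ltb, chr17:35194257-35194556, + strand: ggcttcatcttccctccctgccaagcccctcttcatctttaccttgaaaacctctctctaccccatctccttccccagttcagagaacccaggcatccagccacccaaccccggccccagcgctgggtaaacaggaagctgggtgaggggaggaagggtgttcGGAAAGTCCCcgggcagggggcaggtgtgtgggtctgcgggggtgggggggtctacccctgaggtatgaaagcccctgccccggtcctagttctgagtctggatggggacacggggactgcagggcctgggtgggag
Tnf, chr17:35201958-35202257, - strand: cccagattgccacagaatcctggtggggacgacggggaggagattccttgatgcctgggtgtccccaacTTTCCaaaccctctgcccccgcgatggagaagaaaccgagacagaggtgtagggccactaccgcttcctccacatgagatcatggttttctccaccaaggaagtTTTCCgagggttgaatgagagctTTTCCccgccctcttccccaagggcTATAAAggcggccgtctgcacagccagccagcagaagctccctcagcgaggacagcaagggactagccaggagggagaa
Tnfsf8, chr4:63861235-63861534, - strand: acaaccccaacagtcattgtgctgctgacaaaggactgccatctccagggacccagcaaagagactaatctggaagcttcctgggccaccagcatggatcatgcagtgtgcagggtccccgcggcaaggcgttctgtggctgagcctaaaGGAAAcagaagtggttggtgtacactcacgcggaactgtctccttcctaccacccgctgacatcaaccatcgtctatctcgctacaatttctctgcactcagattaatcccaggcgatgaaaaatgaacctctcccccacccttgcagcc
Of the 8 promoters, only that of Ltb held the kappaB element, at -87 on the opposite strand, where it overlaps an NFAT core. The same element was in 1.63% of 32851 promoters of this length. Tnf had a TATA box at -29 and 3 NFAT cores, at -181, -77 and -54. Tnfsf8 had 1 NFAT core at -100 and none of the other elements. The NFAT core was in all 8 promoters, beside 61.3% of all promoters. An AP-1 element was found for Tnfsf14 only, at -160 (7.81% of all promoters), and a TATA box also for Lta, at -167, and on the opposite strand for Tnfsf11, at -32 (13.6% of all promoters).

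The 3′ UTRs of the longest annotated transcripts were searched for the AU-rich pentamer ATTTA and the nonamer TTATTTATT. The nonamer was in Tnf and Lta only among the 10 ligands, and in 835 of 10148 tested genes (8.23%). The 30 bases richest in pentamers that hold a nonamer are shown for both genes, with the pentamers in capitals.
Tnf, chr17:35199679-35199708, - strand, from base 437 of the 3′ UTR: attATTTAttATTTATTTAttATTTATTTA
Lta, chr17:35203404-35203433, - strand, from base 304 of the 3′ UTR: tatggagagaaaagttaagttATTTATTTA
Tnf held 5 nonamers and 8 pentamers in 764 bases, counted with overlaps, or 10.5 pentamers per kb, against a median of 1.3 per kb over the tested genes. Lta held 1 nonamer and 3 pentamers in 572 bases (5.24 per kb). Ltb, the third gene of this block, had no pentamer in its 156 bases. The other ligands held pentamers without a nonamer, at 5.31 per kb in Tnfsf11, 4.4 in Cd40lg, 3.57 in Tnfsf8 and 2 in Tnfsf10. Tnfsf4 had 1.87 per kb, Fasl 1.13 and Tnfsf14 0.981.

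Library totals lay between 17528776 and 25284730 counts. Genes with more than 3 CPM (counts scaled to 1000000 per library) in at least 4 libraries were tested, which kept 11189 genes and 9 of the 10 ligands. Tnfsf4 passed only through its GC7 libraries, so it had to differ, and Tnfsf14 passed 3 CPM in 2 of the 4 Mock libraries. Cd40lg did not pass. Mock replicate 2 and GC7 replicate 3 stood apart from the rest. The root mean square log2 CPM difference of Mock replicate 2 from the other Mock libraries was 0.313, against 0.212 to 0.223 for its group mates, and that of GC7 replicate 3 was 0.258, against 0.196 to 0.204. Ligand calls that change without them are given both ways. T cell genes were abundant in every library. Cd8a was at 703 ± 27.6 CPM in Mock and 978 ± 30.4 CPM in GC7 (SD, n = 4 each) and was the 1 of 8 CD8 T cell markers called higher, while 5 were called lower and the median log2 difference of the list was -0.32. Cd4 stayed at 0.41 CPM or less and Ms4a1, Pax5, Siglech, Col3a1, Cdh5 and Ccl19 were at 0 counts in all 8 libraries. Some other non-CD8 markers were more abundant than these, with Mock means of 94.1 (Zbtb7b), 56.3 (Kit), 53.5 (Pecam1), 7.49 (Cd79b) and 5.14 CPM (Xcr1). Their GC7 means were lower, at 81.3, 48.6, 30.7, 4.42 and 0.631 CPM in the same order.

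Of the 10 ligands, 6 were higher in GC7-treated cells at an adjusted p under 0.01 (edgeR quasi-likelihood test), 1 was lower, 2 did not pass and 1 was not tested. In the whole table, 23.0% of tested genes were higher and 23.5% lower. More than 2-fold changes were found for 4 ligands, all higher, beside 3.17% of tested genes more than 2-fold higher and 5.31% more than 2-fold lower. The 6 and the 4 include Tnfsf4, which had to differ, since it passed the filter through its GC7 libraries alone. With library totals in place of TMM factors the calls over the whole table were 61.9% higher, against 49.5% with TMM, and the same 6 ligands were called higher. These are bulk libraries, in which fewer cells that express a gene and less mRNA per cell cannot be told apart. The replicates are described as biological, but which animals or cultures they came from is not given, so the p-values measure the spread between these libraries.

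**Figure D1:**
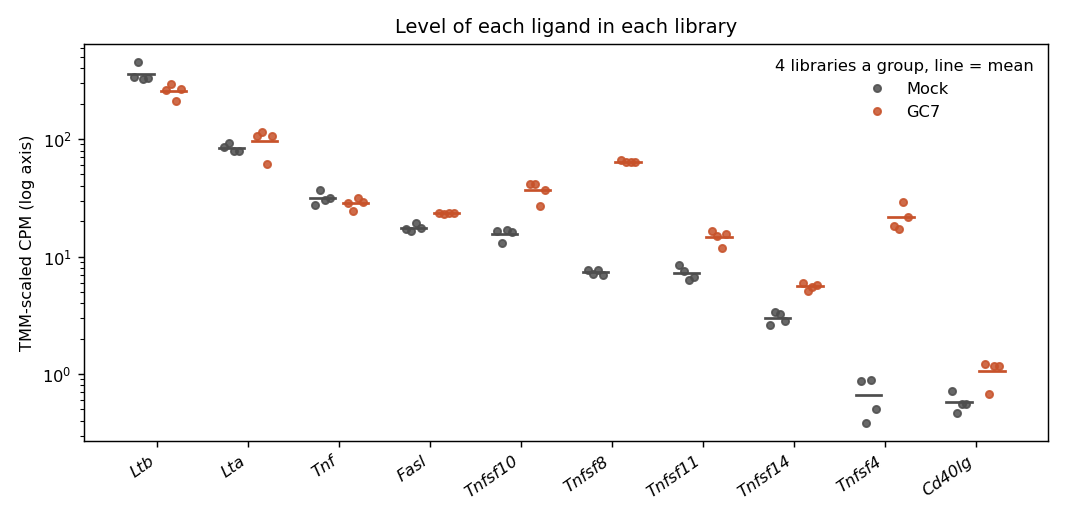
Level of the 10 ligands in each library, as TMM-scaled CPM on a log axis, ordered by the Mock mean. Points are libraries (4 Mock, 4 GC7) and lines are group means. Tnfsf4 and Tnfsf8 are the ligands with the widest gap between the groups, from means of 0.66 to 21.5 CPM and of 7.33 to 64.1 CPM.

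Among the costimulatory ligands, Tnfsf4 changed most. It encodes OX40L, which binds OX40 on T cells. Tnfsf4 (ENSMUSG00000026700, chr1:161395409-161418410, + strand) was at 0.872, 0.383, 0.886 and 0.501 CPM in Mock replicates 1 to 4, from 9 to 19 counts each. In GC7 replicates 1 to 4 it was at 18.1, 17.1, 29 and 21.9 CPM, from 371 to 525 counts each. The groups did not overlap, and GC7 replicate 3 was the highest library. The difference was 5.03 ± 0.252 on the log2 scale (SE, 95% interval 4.48 to 5.58), a 32.6-fold rise with an adjusted p of 1.01e-08. Since Tnfsf4 passed the filter through its GC7 libraries alone, it had to differ, and neither the adjusted p nor the lack of overlap is separate evidence. Because the Mock level rests on 55 counts in all, the size of this fold is uncertain. The log2 difference lay between 4.65 and 5.21 over 16 alternative settings.

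Tnfsf8 encodes CD30L, the ligand of CD30. Tnfsf8 (ENSMUSG00000028362, chr4:63831308-63861347, - strand) was at 7.64, 7.06, 7.64 and 6.97 CPM in Mock and at 65.8, 63.7, 63.4 and 63.7 CPM in GC7. The libraries of each group lay close together, with SDs of 0.366 CPM in Mock and 1.13 CPM in GC7. The rise was 8.75-fold (log2 difference 3.13 ± 0.0693, SE, adjusted p = 1.63e-11) and lay between 3.11 and 3.22 on the log2 scale under every alternative run.

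Tnfsf11 encodes RANKL, a ligand made by activated T cells that acts on dendritic cells and on osteoclast precursors. Tnfsf11 (ENSMUSG00000022015, chr14:78277445-78308043, - strand) was at 8.41, 7.57, 6.34 and 6.77 CPM in Mock and at 16.6, 15.1, 11.8 and 15.6 CPM in GC7. Every GC7 library was above every Mock library, GC7 replicate 3 being the lowest of its group. The rise was 2.04-fold (1.03 ± 0.128 on the log2 scale, adjusted p = 2.5e-05), so it sat at the 2-fold line, and with 1 library left out at a time it ran from 0.96 to 1.12. In 4 of these 8 fits, without Mock replicate 3 or 4 or GC7 replicate 1 or 4, it was under 2-fold, and 3 ligands in place of 4 were then past that line.

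Tnfsf14 encodes LIGHT, which binds the herpesvirus entry mediator and the lymphotoxin beta receptor. Tnfsf14 (ENSMUSG00000005824, chr17:57189492-57194177, - strand) was at 2.61, 3.36, 3.26 and 2.81 CPM in Mock and at 5.99, 5.10, 5.52 and 5.72 CPM in GC7. The groups did not overlap. It was 1.85-fold higher in GC7 (log2 difference 0.88 ± 0.13, adjusted p = 9.99e-05).

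Cd40lg, best known as the helper ligand of CD4+ T cells for CD40 on B cells and dendritic cells, was near the detection limit. Cd40lg (ENSMUSG00000031132, chrX:57212143-57224042, + strand) had 14, 11, 12 and 11 counts in Mock and 25, 15, 21 and 28 counts in GC7, or 0.718 CPM at most in Mock. The groups overlapped once scaled, at 0.683 CPM in GC7 replicate 2. Under the more permissive edgeR filter filterByExpr the log2 difference was 0.88 ± 0.28 with an adjusted p of 0.0171, and with no filter the adjusted p was 0.0336, so it passed the threshold of 0.01 in neither.

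Both death ligands rose. Tnfsf10 encodes TRAIL, which engages death receptors on target cells. Tnfsf10 (ENSMUSG00000039304, chr3:27317028-27342427, + strand) was at 16.4, 13.1, 16.8 and 16.3 CPM in Mock and at 41.6, 41.8, 27.0 and 36.6 CPM in GC7. Mock replicate 2 and GC7 replicate 3 were the lowest of their groups, and the groups did not overlap. The rise was 2.36-fold (1.24 ± 0.134 on the log2 scale, adjusted p = 7.84e-06). Its transcripts share a stretch of at least 200 bases at 90% identity or more with transcripts of 4 other genes (AU022252, Loxl2, Ptk2 and Snx10), and since it is not stated how multiply matching reads were counted, its level carries that uncertainty. The other 9 ligands had no such match.

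Fasl, the ligand of Fas, rose less. Fasl (ENSMUSG00000000817, chr1:161780689-161788495, - strand) was at 17.1, 16.6, 19.3 and 17.6 CPM in Mock and at 23.4, 23.0, 23.5 and 23.5 CPM in GC7. The 4 GC7 libraries had an SD of 0.231 CPM and were all above the Mock libraries. The rise was 1.32-fold (0.41 ± 0.0733 on the log2 scale, adjusted p = 0.000482).

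The inflammatory ligands Tnf, Lta and Ltb lie side by side on chromosome 17, and of the 3 only Ltb passed the test. Ltb and Tnf are 3.06 kb apart and Tnf and Lta 1.16 kb apart, with no protein-coding gene between them. Ltb encodes lymphotoxin beta, which anchors secreted lymphotoxin alpha at the cell surface. Ltb (ENSMUSG00000024399, chr17:35194439-35196320, + strand), whose promoter held the kappaB element, was at 336, 453, 322 and 332 CPM in Mock and at 264, 293, 213 and 267 CPM in GC7. Mock replicate 2 was far above its group, GC7 replicate 3 was the lowest library, and the groups did not overlap. Ltb fell 1.39-fold (-0.48 ± 0.119 on the log2 scale, adjusted p = 0.00435). This call was close to the threshold. The difference was -0.40, -0.49 and -0.49 without GC7 replicate 3, 1 or 4, with adjusted p of 0.0128, 0.0107 and 0.0105, and -0.38 (adjusted p = 0.0125) with library totals. Without both libraries that stood apart, an alternative chosen after seeing the data, it was -0.26 with an adjusted p of 0.000161.

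Lta encodes lymphotoxin alpha. Lta (ENSMUSG00000024402, chr17:35203165-35205351, - strand) was at 85.7, 92.9, 79.0 and 79.4 CPM in Mock and at 107, 114, 61.9 and 106 CPM in GC7. In GC7, 3 libraries were above every Mock library and replicate 3 was below them all. The difference of 0.21 ± 0.151 on the log2 scale did not pass (95% interval -0.12 to 0.54, adjusted p = 0.249). Replicate 3 of GC7 decided this. Without it Lta was higher by 0.37 with an adjusted p of 0.00109, and without Mock replicate 2 as well by 0.43 with an adjusted p of 1.81e-06, which brought the ligands called higher to 7.

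Tnf (ENSMUSG00000024401, chr17:35199381-35202007, - strand), the prototype inflammatory cytokine of the family and the richest of the 10 in AU-rich nonamers, was at 27.6, 37.1, 30.2 and 31.3 CPM in Mock and at 28.5, 24.6, 31.3 and 29.4 CPM in GC7. The groups overlapped from the lowest Mock library to the highest GC7 library, a range that held 2 Mock and 3 GC7 libraries. The difference was -0.15 ± 0.10 on the log2 scale (95% interval -0.37 to 0.07, adjusted p = 0.211), and it stayed between -0.21 and -0.06 over 16 alternatives, none past the threshold. Nfkbil1, the protein-coding gene on the other side of Lta at 14.8 kb, was at 22.5 ± 3.17 CPM in Mock and 18.9 ± 1.46 CPM in GC7 (-0.25 ± 0.103 on the log2 scale, adjusted p = 0.05). The 2 miRNA genes inside Ltb and Lta, Mir6973a and Mir6974, had at most 21 counts and 1 count in any library.

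**Figure D2:**
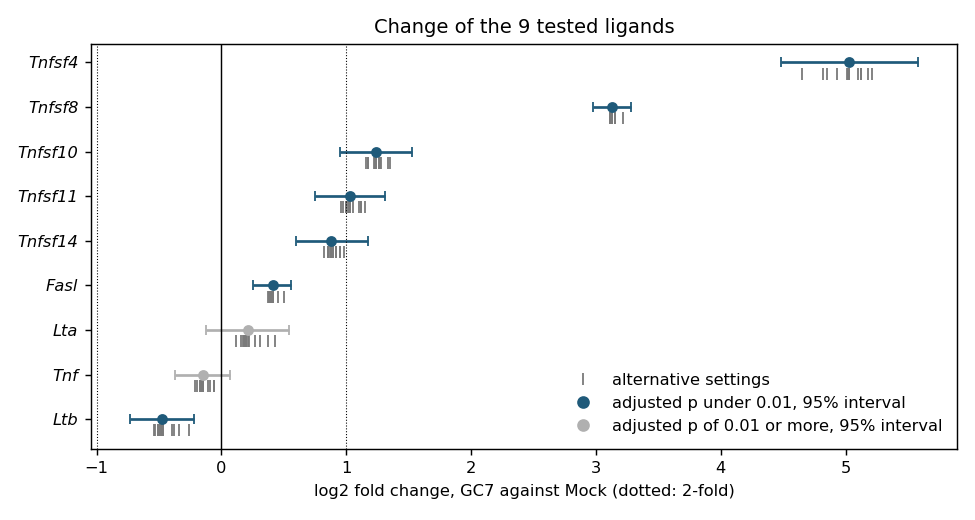
log2 fold change, GC7 against Mock, of the 9 tested ligands. Points with bars are the estimates with 95% intervals, dark where the adjusted p was under 0.01, and ticks under each point are the same value under 16 alternative settings. The interval of Tnfsf8 is from 2.98 to 3.28 and lies apart from that of Tnfsf4, while those of Lta and Tnf cross 0.

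Levels can be compared between genes only per length, so CPM was divided by the exon length of each gene. On this per kb scale Ltb, Lta, Tnf and Fasl stood in that order in every Mock library, at means of 238, 60.9, 19.2 and 9.11 CPM per kb, with no overlap between neighbours. Tnfsf11 (3.25) and Tnfsf10 (2.97) overlapped, as did Cd40lg (0.459) and Tnfsf4 (0.358), which came last. In GC7, Ltb and Lta still led at 171 and 70.4 CPM per kb. Tnf (17.3) and Tnfsf8 (16.8) could not be told apart there, nor could Fasl (12.1) and Tnfsf4 (11.7), or Tnfsf10 (6.98) and Tnfsf11 (6.61). Tnfsf4, among the last 2 of the 10 in Mock, was above Tnfsf10, Tnfsf11, Tnfsf14 and Cd40lg in every GC7 library. Over the 10 genes the summed level was 338 ± 46.7 CPM per kb in Mock and 317 ± 36.7 in GC7 (SD, n = 4 each), with ranges that overlapped. Within that sum, Ltb had 70.2% ± 2.13 in Mock and 54.0% ± 1.2 in GC7, and the 6 ligands called higher had 4.49 to 6.56% in Mock and 15.9 to 22.0% in GC7. A group picked for its rise must gain share, so this last figure only describes its size.

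**Figure D3:**
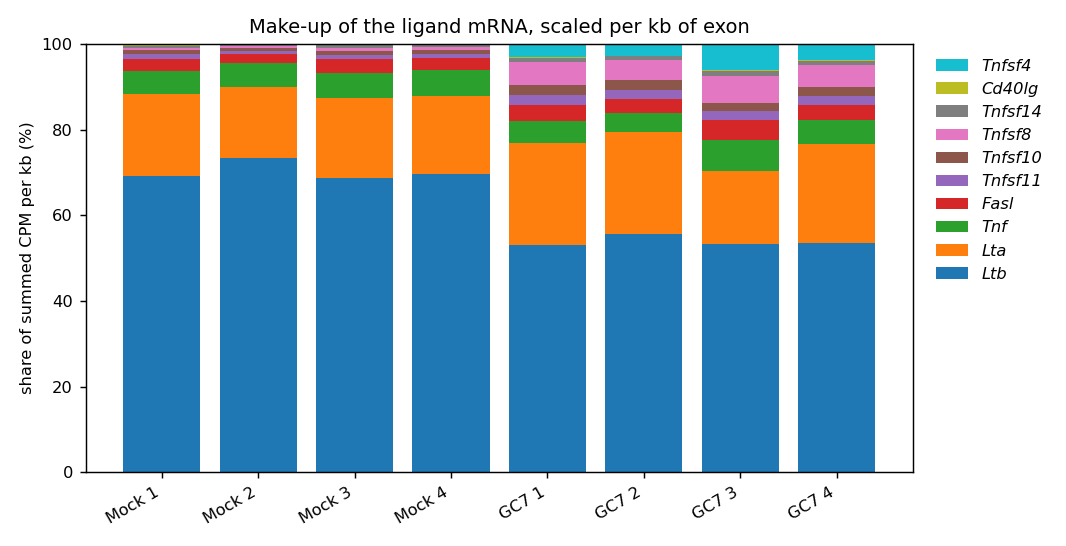
Share of each ligand in the summed CPM per kb of the 10 ligands, for each of the 8 libraries. Each bar adds to 100%. Ltb and Lta make up 87.3 to 89.9% of the sum in Mock and 70.4 to 79.6% in GC7, and Tnfsf8 and Tnfsf4 become visible in the GC7 bars.

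The genes whose log2 CPM followed each extreme ligand most closely over the 8 libraries were listed as a description. For Tnfsf4 these were Ercc8, a nucleotide excision repair factor (Pearson r = 0.999), the unnamed gene C130083M11Rik (r = 0.998) and Exoc4, a subunit of the exocyst (r = 0.998). For Ltb they were Rrp1 (r = 0.996) and Nol12 (r = 0.989), both nucleolar, and Nudc (r = 0.991). The 8 points fall into 2 groups for Tnfsf4, so its r mostly measures the shared difference between GC7 and Mock, and the highest r among all tested genes is high by selection.

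Of the other 8 ligands of the family, 1 passed the filter. Tnfsf9, the ligand of 4-1BB, was at 4.19 ± 0.709 CPM in Mock and 4.01 ± 0.448 CPM in GC7 and did not pass (log2 difference -0.07, 95% interval -0.40 to 0.26, adjusted p = 0.724). Cd70, the ligand of CD27, had 0, 0, 0 and 1 counts in Mock and 15, 10, 21 and 14 counts in GC7, a ratio of 64.2 with a 95% exact interval of 11.1 to 2576 that covers counting error only. Tnfsf15 had 1 count in the 4 Mock libraries together and 3 to 6 counts in each GC7 library (ratio 18.2, interval 2.85 to 760). Tnfsf13b, the B cell survival factor BAFF, went the other way, with 19 to 34 counts in each Mock library and 2 to 5 in each GC7 library (filterByExpr, log2 difference -2.87 ± 0.347, adjusted p = 1.15e-05). Tnfsf12, Tnfsf13 and Eda had at most 5 counts in any library and Tnfsf18 had 1 count in all.

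Several of these genes are neighbours of the 10. On chromosome 4, Tnfsf15 lies 86.2 kb from Tnfsf8, and both were higher in every GC7 library than in any Mock library. Tnfsf15 was under the filter, with at most 6 counts in any library. On chromosome 17, Tnfsf9, Cd70 and Tnfsf14 follow each other at gaps of 38.2 and 39.7 kb. Cd70 and Tnfsf14 were higher in every GC7 library, and the ranges of Tnfsf9 overlapped. On chromosome 1, Tnfsf4 and Fasl have Tnfsf18 between them, at 76.2 and 275 kb, and the 3 genes were at 21.5, 23.4 and 0.0104 CPM in GC7. A link of position to these levels was not tested.

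The receptors of the 10 ligands were measured in the same cells. Of 13 receptor genes 8 were tested, 3 were higher and 4 lower (23.0% and 23.5% of all tested genes), and the median log2 difference of the tested receptors was -0.22, beside 0.02 over all tested genes. For 2 costimulatory pairs the receptor fell while the ligand rose. Tnfrsf8, which encodes CD30, was at 53.6, 39.8, 52.2 and 53.1 CPM in Mock and at 2.43, 2.69, 1.84 and 2.59 CPM in GC7, a 20.6-fold fall (-4.36 ± 0.137, adjusted p = 1.59e-10). It passed the filter only through its Mock libraries, so it had to differ, as did the ligand Tnfsf4, which passed through its GC7 libraries alone. Tnfrsf4, which encodes OX40, was at 159, 156, 154 and 143 CPM in Mock and at 76.7, 65.7, 81.6 and 73.1 CPM in GC7, a 2.06-fold fall (-1.04 ± 0.0724, adjusted p = 1.7e-07). Neither receptor had overlapping groups.

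The death receptors of both death ligands were higher too. Fas was at 8.51, 10.6, 9.93 and 8.27 CPM in Mock and at 23.8, 22.9, 46.3 and 30.6 CPM in GC7 (1.72 ± 0.203 on the log2 scale, 3.29-fold, adjusted p = 1.62e-05), with GC7 replicate 3 the highest. Tnfrsf10b, the mouse TRAIL receptor with a death domain, was at 15.1, 14, 17.4 and 14.3 CPM in Mock and at 49.2, 45.3, 51.1 and 46.0 CPM in GC7 (1.66 ± 0.0832, 3.15-fold, adjusted p = 1.04e-08). Tnfrsf22, a TRAIL decoy receptor, fell 1.27-fold (adjusted p = 0.00598), the weakest call among the 4 lower receptors. Lower receptors were 3 with library totals and 3 to 4 with a library left out. Tnfrsf14, the herpesvirus entry mediator that binds LIGHT, rose 1.5-fold (adjusted p = 0.000305). Of the receptors for Tnf, Tnfrsf1b fell 1.36-fold from 115 ± 4.57 to 84.2 ± 6.4 CPM (adjusted p = 0.000115), and Tnfrsf1a did not pass (log2 difference -0.10, 95% interval -0.26 to 0.07, adjusted p = 0.285). Below the filter, Tnfrsf11a, the receptor of RANKL, had at most 2 counts in any Mock library and 11 to 28 in each GC7 library. Cd40 and Ltbr had at most 4 counts in any library, so receptors for Cd40lg and for the lymphotoxin heterotrimer were close to undetected at this depth.

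**Figure D4:**
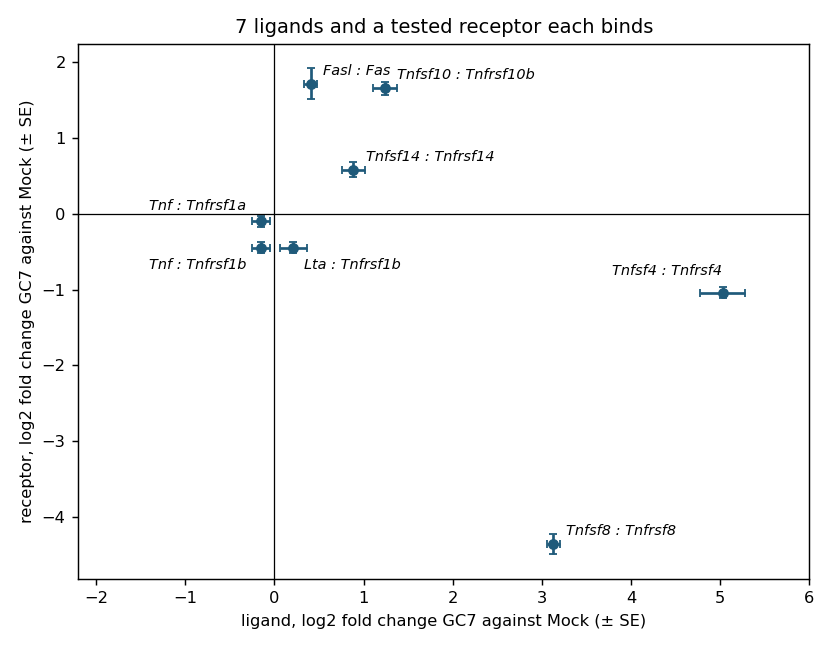
log2 fold change, GC7 against Mock, of 7 tested ligands (x axis) and of a tested receptor that each binds (y axis), with bars of 1 SE. Ltb and Tnfsf11 are not drawn, since the receptors listed for them were under the filter. Tnfsf8 and Tnfsf4 lie to the lower right, with ligand up and receptor down, and Fasl, Tnfsf10 and Tnfsf14 lie to the upper right with both higher. Tnfsf4 and Tnfrsf8 each passed the filter through 1 group alone, so each had to differ. Tnfsf10 is drawn with Tnfrsf10b and not with its decoy receptor Tnfrsf22, which was lower in the main test (log2 difference -0.34, adjusted p = 0.00598).

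Of 14 adaptors and death signalling genes, all tested, 4 were higher and 5 lower, beside 23.0% and 23.5% of all tested genes, with a median of -0.03. Tradd, the death domain adaptor of the type 1 TNF receptor, fell 2.08-fold from 39.3 ± 4.37 to 18.8 ± 1.6 CPM (adjusted p = 1.31e-06). Cflar, the inhibitor of caspase-8 activation, fell 1.54-fold (adjusted p = 3.84e-05), and Traf3, a negative regulator of non-canonical NF-kappaB, rose 1.54-fold (adjusted p = 4.04e-05). Of 8 genes for ligand shedding, 5 were tested, with 3 higher and 1 lower, beside 23.0% and 23.5% of all tested genes, and a median of 0.35. Adam10, the sheddase of Fasl, rose 1.31-fold (adjusted p = 0.00106). Sppl2a, an intramembrane protease that acts on Tnf and Fasl stubs, rose 1.3-fold (adjusted p = 0.000184), and Rhbdf2, the partner of the Tnf sheddase, rose 1.27-fold (adjusted p = 0.000328). The sheddase itself, Adam17, was the 1 gene that was lower, 1.19-fold (adjusted p = 0.00469), and that call was lost in 7 of 16 alternatives (adjusted p from 0.000541 to 0.0703 over all of them).

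Factors that bind the AU-rich or stem-loop elements of cytokine mRNAs moved in both directions. Of 10 tested, 5 were higher and 3 lower (23.0% and 23.5% of all tested genes), with a median of 0.24. Zfp36 (tristetraprolin), which binds the nonamer printed above for Tnf, was at 189, 221, 207 and 208 CPM in Mock and at 90.8, 83.2, 87.3 and 101 CPM in GC7, a 2.28-fold fall (-1.19 ± 0.0732, adjusted p = 5.8e-08). Of its relatives, Zfp36l2 fell 1.69-fold (adjusted p = 2.74e-06) and Zfp36l1 rose 1.56-fold (adjusted p = 6.8e-05). Tia1, a translational repressor at the same elements, rose 1.66-fold (adjusted p = 3.46e-05). Tnf and Lta, the ligands with a nonamer, were the 2 tested ligands that did not pass, and Lta passed once GC7 replicate 3 was left out. Their log2 differences had opposite signs, -0.15 for Tnf and 0.21 for Lta. The ligands called higher held pentamers too, from 0.981 per kb in Tnfsf14 to 5.31 in Tnfsf11, beside 5.24 in Lta and 10.5 in Tnf. A link of the nonamer, of the pentamers or of these factors to the ligand levels was not tested.

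Of 19 transcription factors of the antigen receptor response, 18 were tested, 5 were higher and 8 lower (23.0% and 23.5% of all tested genes), and the median was -0.11. Egr1 fell 3.54-fold from 392 ± 34.9 to 111 ± 10.2 CPM (adjusted p = 5.98e-09), and Fos, a part of AP-1, fell 2.36-fold from 118 ± 11.5 to 49.7 ± 9.9 CPM (adjusted p = 4.13e-06). Egr3 rose 2.93-fold from 8.26 ± 0.974 to 24.2 ± 3.8 CPM (adjusted p = 6.23e-07). Rel, the NF-kappaB subunit c-Rel, rose 2.11-fold from 37.4 ± 5.44 to 79.1 ± 4.26 CPM (adjusted p = 1.69e-06).

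**Figure D5:**
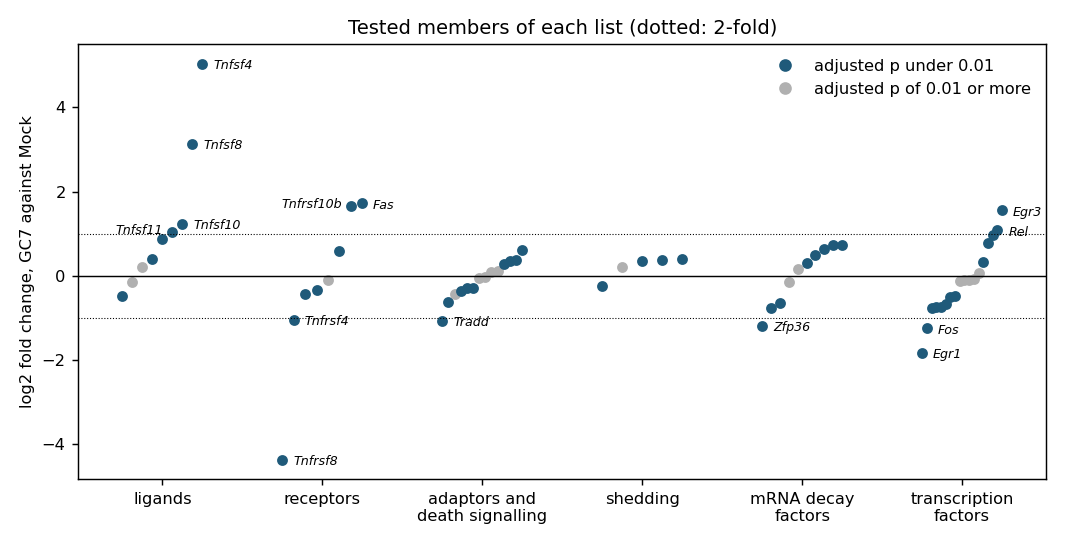
log2 fold change, GC7 against Mock, of the tested members of each list, dark where the adjusted p was under 0.01. Genes with more than a 2-fold change are named. The lists around the ligands hold changes in both directions, with medians between -0.22 and 0.35.

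Some markers of other cell types moved with the groups. Of 8 myeloid and dendritic markers 7 were under the filter, and the summed level was 4.52 to 6.04 CPM in Mock and 0.835 to 1.27 CPM in GC7. Xcr1 made up most of it, at 5.14 ± 0.739 and 0.631 ± 0.187 CPM, while Csf1r, Lyz2 and Adgre1 stayed at 0.391 CPM or less. The stromal and endothelial sum of 6 markers fell from 51.5 to 56.2 down to 30.3 to 32.3 CPM, with Pecam1 as its 1 tested gene and 3 markers at 0 throughout. The 5 B cell markers summed to 7.02 to 10.1 CPM in Mock and 4.63 to 5.93 CPM in GC7, with Cd79b as the tested gene and Ms4a1 and Pax5 at 0. The 6 NK and innate lymphoid markers overlapped between the groups, at 47.5 to 66.9 and 48.2 to 57.5 CPM, mostly Kit, and the 3 CD4 T cell markers were at 93.1 to 97.5 and 75.6 to 85 CPM, mostly Zbtb7b. The 8 CD8 T cell markers summed to 8200 to 9747 CPM in Mock and 5517 to 7298 CPM in GC7, with Gzmb as the most abundant of them at 4438 ± 405 and 2907 ± 689 CPM. The part of these shifts in the ligand differences was not tested.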

How the data were processed

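Sequencing libraries were made from total RNA of OT-I CD8+ T cells, 4 GC7 and 4 Mock, and were grouped by the labels. The authors used Cutadapt for trimming, STAR for alignment to GRCm38 and featureCounts for counting, and the deposited values are raw counts for each gene in each library. The strand setting and the counting of reads with several matches are not given in the sources used here. Totals were between 17528776 and 25284730 counts, so the minimum of 3 CPM corresponded to 52.6 to 75.9 counts.

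The filter kept any gene above 3 CPM in 4 or more libraries. The 11189 genes left were tested in edgeR (version 4.0.16, R version 4.3.3) with TMM factors and the group as the model, by quasi-likelihood F tests adjusted after Benjamini and Hochberg. An adjusted p under 0.01 was called, as was the same with more than a 2-fold change. A gene under the filter has its counts and, where printed, its filterByExpr value. Levels are TMM-scaled CPM, as mean ± SD, and log2 differences are GC7 minus Mock ± SE. On simulated data for the same genes, 200 of 200 changed genes were recovered with 4 false calls. Those 200 of the 11189 genes were changed by 2-fold or more, with the same spread for all genes and no library that stood apart. Smaller changes, such as those of Fasl and Ltb, were not covered by this simulation. Symbols, positions and exon lengths came from GENCODE M21 (Ensembl 96, GRCm38), which matched all 55536 identifiers. Near-identical transcripts were searched with BLAST (version 2.17.0). Alternatives were RLE factors, library totals, DESeq2 (version 1.42.0), limma-voom (limma version 3.58.1), no filter, filterByExpr, the replicate number as a block, each library left out, longest transcripts for lengths, and both libraries that stood apart left out. Tables and figures were made in Python (version 3.11.15) with pandas, scipy and matplotlib.

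The members, the lists around them and the tests were chosen with earlier results of these data known. Named are all 10 ligands, the other ligands of the family, the members of each list past 2-fold or, where fewer than 3, the largest changes up to 3, the genes most like the ligands with the largest rise and fall, and the neighbours of Tnf, Lta and Ltb. Receptors outside this rule (Tnfrsf1a, Tnfrsf1b, Tnfrsf11a, Tnfrsf14, Tnfrsf22, Cd40, Ltbr), Adam17 and Zfp36l1 were chosen after their values were seen.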

Additional observations from a re-analysis of the deposited data

Results flagged for a closer look

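In 54 groups of 4 libraries, 2 for each of 27 tested genes named above, the gap of the most extreme library to its nearest neighbour was compared with the range of the group. This ratio was above the 95% critical value of Dixon's test in 6 groups, and chance flags about 1 group in 20. Lta in GC7 replicate 3 was at 61.9 CPM while the other GC7 libraries were at 106 to 114 CPM (ratio 0.833). Ltb in Mock replicate 2 was at 453 CPM against 322 to 336 CPM (0.893). Tnfsf10 in Mock replicate 2 was at 13.1 CPM against 16.3 to 16.8 CPM (0.866), and Tnfrsf8 in the same library was at 39.8 CPM against 52.2 to 53.6 CPM (0.896). Tnfsf8 in GC7 replicate 1 was at 65.8 CPM against 63.4 to 63.7 CPM (0.884), a difference that is small beside the gap between the groups. Egr1 in GC7 replicate 2 was at 95.5 CPM against 113 to 117 CPM (0.841). Of the 6, 4 fall in the libraries that stood apart, Mock replicate 2 and GC7 replicate 3.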

How the results depend on the processing

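Of 145 repeats of the ligand fold changes under alternatives, 139 kept their direction and their side of the threshold, and none reversed. In 4 the fall of Ltb was no longer called, and in 2 Lta became higher. The 6 ligands called higher were called so under all 16 alternatives. Ligands called lower were 1 in the main test, 0 with library totals and 0 to 1 with a library left out, and ligands more than 2-fold higher were 3 to 4 with a library left out. Library totals also moved the median log2 difference of all tested genes from 0.018 to 0.112. They gave 3 lower adaptors in place of 5, 3 lower receptors in place of 4 and 0 lower shedding genes in place of 1. Other filters tested more genes and so called more of them past 2-fold, 773 higher and 1189 lower with no filter and 601 higher and 1013 lower with filterByExpr, against 355 and 594. The ligands outside the 10 then had 2 higher and 1 lower with no filter and 1 lower with filterByExpr. Lower shedding genes were 0 with no filter. With a library left out, lower shedding genes were 0 to 1, lower receptors 3 to 4, higher adaptors 2 to 4 and higher mRNA decay factors 3 to 5. Without both libraries that stood apart, 3223 genes were higher and 3149 lower (2579 and 2635 with all 8), and among the lists 4 shedding genes in place of 3 and 6 decay factors in place of 5 were higher, and 6 adaptors in place of 5 and 9 transcription factors in place of 8 were lower. The cause of these shifts was not tested.

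Nothing states that same-numbered Mock and GC7 libraries share an animal or culture, so the numbers were not taken as pairs. Same-numbered libraries deviated together in 2 of 4 pairs (r from -0.183 to 0.272), and 2 of 4 Mock libraries correlated best with their own number. With 4 libraries in each group, this check cannot decide whether they were paired. With the replicate block, 6 ligands were higher and 1 lower, 2382 genes of the whole table were higher and 2485 lower, and the 1 lower shedding gene was lost (0). Counts limit Cd40lg, Cd70, Tnfsf15 and the Mock level of Tnfsf4 most. Lengths from the longest transcript in place of all exons left every ligand level per kb within 1 SD of its group.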
